A study of Chlorocebus aethiops with 10 samples.

Results

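A set of genes that mark hepatic stellate cells or the scar matrix they make was followed in liver biopsies of African green monkeys treated with an inhibitor of microRNA-33: LRAT, DES, RGS5, ACTA2, PDGFRB, TGFB1, DCN, LUM, LOX and TIMP1. They were taken by gene symbol from the array's probe annotation. All 10 of the 10 genes were measured, by 13 array features (DCN by 4, each of the others by 1), among 16583 genes in all. The treated group (n = 5) was given antimiR-33a/b, an LNA (locked nucleic acid) oligonucleotide against both miR-33a and miR-33b, subcutaneously, starting with 20 mg/kg (day 0) and continuing with 5 mg/kg each week. The vehicle group (n = 5) received 0.9% saline. Every animal was an adult, moderately obese female of Chlorocebus aethiops on a high-fat diet of 12 weeks, biopsied on day 57, and each array is 1 animal. Treated livers were set against vehicle livers after 8 weeks of dosing; the labels also describe groups given antimiR-33a or antimiR-33b alone, which were not analysed here.

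Hepatic stellate cells lie between hepatocytes and the sinusoidal endothelium and store vitamin A as retinyl esters. In chronic liver injury they lose these stores, acquire contractile filaments and secrete collagen, and transforming growth factor beta and platelet-derived growth factor are the best known signals that drive this change. The genes therefore fall into markers of the resting cell, markers of the contractile cell or pericyte, the signals, and the matrix with its enzymes and inhibitors. In bulk tissue, fewer cells of a type and less RNA per cell cannot be told apart.

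The deposited values are centred per feature and are read here on a log2 scale. The base of the logarithm is not given in the sources used here. A value of 0 is near the middle of a gene's own range, so values are compared between animals and never between genes, and how far any signal stood above background cannot be told. For the same reason the arrays cannot show whether markers that define liver or stellate cells were present or absent. A difference is treated minus vehicle, and a gene is said to have risen or fallen where its adjusted p in limma, a linear model fitted over all 16583 genes with Benjamini-Hochberg adjustment, was under 0.05. Across all genes 20.5% passed, 13.7% upward and 6.8% downward, and 59.2% had a difference above 0.

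TIMP1, LRAT and RGS5 rose in treated livers, by 1.29-fold, 1.25-fold and 1.27-fold. TIMP1 encodes a secreted inhibitor of matrix metalloproteinases, LRAT the enzyme that esterifies retinol for storage, and RGS5 a regulator of G-protein signalling that marks pericytes. None of the 10 genes fell, and DES, ACTA2, PDGFRB, TGFB1, LOX, DCN and LUM did not pass. Among the 10, the 3 that rose (30.0%) are to be read against the 20.5% of all genes that passed. The difference was above 0 for 7 of the 10, with a median of 0.19 against 0.039 over all genes.

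**Figure D1:**
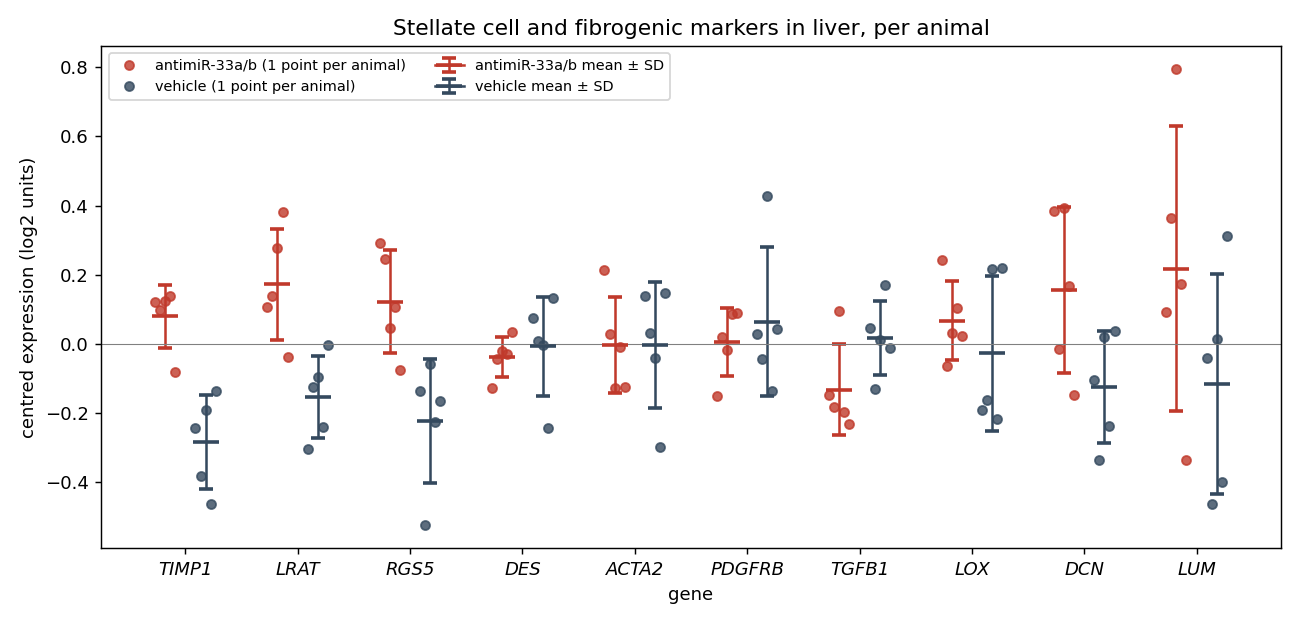
Centred expression (log2 units) of the 10 markers, with 1 point per animal and the mean ± SD of 5 antimiR-33a/b animals to the left of 5 vehicle animals. All 5 treated values of TIMP1 lie above all vehicle values, LRAT and RGS5 have 4 of 5 above, and the groups overlap widely for DES, ACTA2, PDGFRB and LOX.

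LRAT, whose product is the main retinol esterifying enzyme of the resting stellate cell, was at 0.10, 0.14, 0.28, 0.38 and -0.038 in the treated animals 1 to 5, against -0.30, -0.12, -0.096, -0.24 and -0.0034 in the vehicle animals 1 to 5. All but the fifth treated animal lay above the highest vehicle value. The mean was 0.17 ± 0.16 in treated and -0.15 ± 0.12 in vehicle livers (SD, n = 5 each), a difference of 0.33 (SE 0.084, limma adjusted p = 0.0179). An exact permutation test (two-sided, all 252 ways to split the animals) gave p = 0.0159. Without vehicle animal 1 the limma adjusted p was 0.0504, and LRAT then missed the threshold.

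Desmin, encoded by DES, is the muscle-type intermediate filament used to label stellate cells in rodents. Its values were -0.13, -0.046, -0.020, -0.031 and 0.034 in treated livers, and 0.073, 0.0072, -0.0040, -0.24 and 0.13 in vehicle livers. The treated values all lay inside the vehicle range, and the difference of -0.031 (SE 0.071, 95% confidence interval -0.18 to 0.12) was well within the spread between animals.

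RGS5 was at 0.29, 0.24, 0.046, 0.11 and -0.076 in treated livers and at -0.14, -0.53, -0.060, -0.23 and -0.16 in vehicle livers. As for LRAT, the fifth treated animal alone overlapped the vehicle group. The means were 0.12 ± 0.15 in treated and -0.22 ± 0.18 in vehicle livers (SD, n = 5 each), with a difference of 0.34 (SE 0.094, limma adjusted p = 0.0223; exact permutation p = 0.0159). Leaving out treated animal 1 raised the limma adjusted p to 0.0537, and RGS5 then missed the threshold. ACTA2, the smooth muscle actin of activated stellate cells and of vessel walls, showed values of 0.21, 0.028, -0.13, -0.0085 and -0.13 in treated livers, against 0.14, 0.030, -0.040, -0.30 and 0.15 in vehicle livers. The groups overlapped over most of their range, and the difference was 0.00090 with a 95% confidence interval of -0.20 to 0.20 (limma adjusted p = 0.996). The sign of this ACTA2 value is not settled: after quantile normalization the difference was -0.011, and after every array was shifted to the same median it was -0.0049.

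Of the signalling genes, PDGFRB encodes the platelet-derived growth factor receptor through which stellate cells are driven to divide and migrate. PDGFRB stood at -0.15, 0.019, -0.018, 0.085 and 0.090 in treated livers, and at 0.027, -0.043, 0.43, -0.14 and 0.044 in vehicle livers. Vehicle animal 3 was far above the other 9, and without it the difference changed sign, to 0.032 against -0.059 with all animals (SE 0.095, limma adjusted p = 0.694). TGFB1, the main profibrogenic ligand, was at -0.15, -0.18, 0.095, -0.20 and -0.23 in treated livers, against 0.045, -0.13, 0.011, 0.17 and -0.011 in vehicle livers. All but 1 of the treated values were below every vehicle value, while treated animal 3 exceeded 4 of the vehicle animals. The TGFB1 difference of -0.15 (SE 0.075, 95% confidence interval -0.31 to 0.012, limma adjusted p = 0.17) did not pass, nor did the exact permutation test (p = 0.103).

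Decorin and lumican, encoded by DCN and LUM, are small leucine-rich proteoglycans that bind collagen fibrils, and decorin also binds TGF-beta. DCN, as the mean of its 4 features, was at 0.38, -0.014, 0.39, 0.17 and -0.15 in treated livers and at -0.11, -0.34, 0.019, -0.24 and 0.038 in vehicle livers. Treated animals 1, 3 and 4 lay above the vehicle range and the other 2 inside it. The difference was 0.28 (SE 0.11, 95% confidence interval 0.043 to 0.52), and it did not pass over all genes (limma adjusted p = 0.0869; exact permutation p = 0.0794). Without treated animal 5, DCN differed by 0.36 and passed (limma adjusted p = 0.0363). Taken one by one, the 4 DCN features differed by 0.38, 0.33, 0.24 and 0.17. The first of these passed when each annotated feature was tested on its own (limma adjusted p = 0.0228) and the other 3 did not (0.0531, 0.128 and 0.368). The features are named after different reference transcripts of the gene, and what part of the monkey transcript each probe covers was not analysed here.

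LUM was the most variable of the 10, with a residual SD larger than that of 98.4% of all genes. Its values were 0.091, 0.36, 0.80, 0.17 and -0.34 in treated livers and -0.043, -0.46, 0.012, -0.40 and 0.31 in vehicle livers. The LUM difference of 0.33 was as large as that of LRAT, but its SE was 0.19 and its limma adjusted p was 0.218. Without treated animal 3 the LUM difference was 0.19, and without treated animal 5 it was 0.47 (adjusted p = 0.461 and 0.0744). LOX, the lysyl oxidase that crosslinks collagen and elastin, was at 0.24, -0.065, 0.031, 0.10 and 0.023 in treated livers, against -0.19, -0.16, 0.22, -0.22 and 0.22 in vehicle livers. Vehicle animals 3 and 5 were near the highest treated value and the other 3 lay below all treated values, and LOX differed by 0.094 (SE 0.099, limma adjusted p = 0.524). The LOX difference was 0.047 to 0.061 without treated animal 1 or vehicle animal 1, 2 or 4, and 0.16 without vehicle animal 3 or 5.

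TIMP1 had the smallest p of the 10 genes, at rank 636 of 16583. It was at 0.12, 0.098, 0.12, 0.14 and -0.082 in treated livers and at -0.24, -0.38, -0.19, -0.47 and -0.14 in vehicle livers. No treated value reached down to the highest vehicle value. Groups separated in this way in 8.79% of all genes upward, 4.52% downward and 13.3% in either direction, and TIMP1 was the 1 such gene among the 10. The means were 0.080 ± 0.092 in treated and -0.28 ± 0.14 in vehicle livers (SD, n = 5 each). The difference was 0.36 (SE 0.074, 95% confidence interval 0.20 to 0.52, limma adjusted p = 0.00666), and the exact permutation p was 0.0079, the smallest this design allows. Whichever animal was left out, TIMP1 passed, with limma adjusted p between 0.00632 and 0.0207.

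The markers did not share one order of animals. Vehicle animal 4 held the lowest value for TIMP1, DES, ACTA2 and LOX and the highest for TGFB1, and vehicle animal 2 held the lowest for RGS5, DCN and LUM. Treated animal 1 was highest for RGS5, ACTA2 and LOX, treated animal 3 for DCN and LUM, and treated animal 4 for TIMP1 and LRAT. The highest PDGFRB and DES values came from vehicle animals 3 and 5. Treated animal 5 was the lowest of its group for TIMP1, LRAT, RGS5, DCN and LUM. It was the lowest of all 10 animals for TGFB1, and the highest of its group for DES and PDGFRB.

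Whether one marker moved more than another was tested on the difference between 2 genes within each animal, for 5 pairs, with p-values from the exact permutation test adjusted over the 5. LRAT minus ACTA2, a storage marker against a contractile one, averaged 0.18 ± 0.22 in treated and -0.15 ± 0.19 in vehicle livers (SD, n = 5 each), a gap of 0.33 (exact p = 0.0317, adjusted p = 0.0529). RGS5 minus PDGFRB, both of which mark pericytes, gave a gap of 0.40 (exact p = 0.0238, adjusted p = 0.0529). For TIMP1 minus LOX the gap was 0.27 (exact p = 0.0238, adjusted p = 0.0529). These 3 pairs missed the threshold after adjustment, with 4, 4 and 3 of 5 treated animals above every vehicle animal. Each set a gene that rose against one that did not pass, and the pairs were chosen with earlier results of these data known. Their p-values are therefore no support beyond the results of the single genes.

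The other pairs, TIMP1 minus TIMP2 and DCN minus LUM, had gaps of -0.043 (SE 0.086) and -0.052 (SE 0.16), both with an exact adjusted p of 0.786. Unequal movement was not detected within these pairs, which does not show that their genes moved alike.

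**Figure D2:**
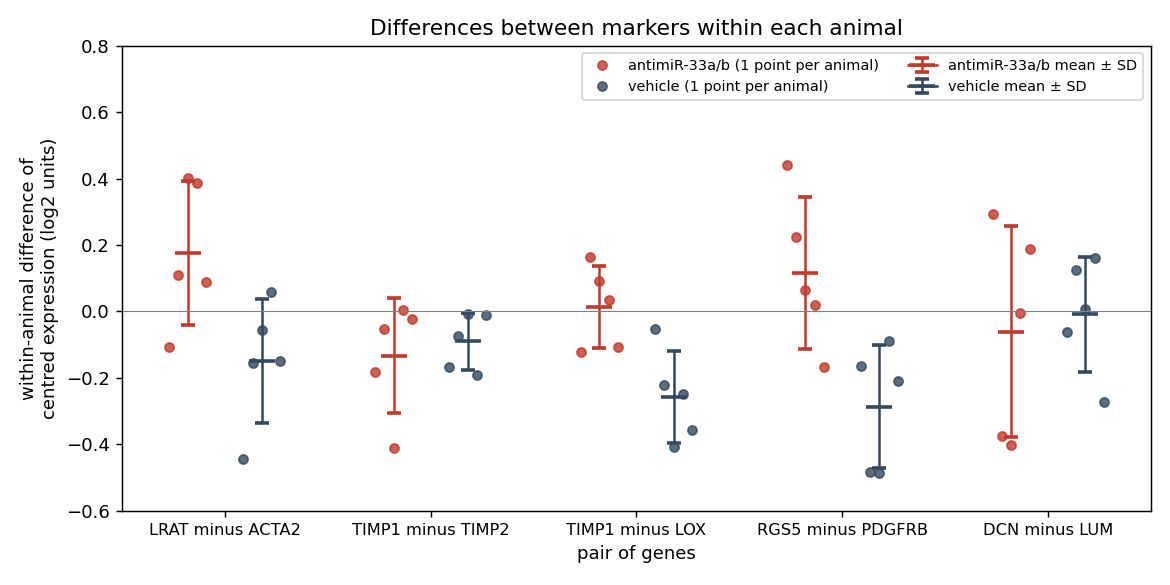
Difference of centred expression between 2 genes within each animal (log2 units), with 1 point per animal and the mean ± SD of 5 antimiR-33a/b animals to the left of 5 vehicle animals. For LRAT minus ACTA2 and RGS5 minus PDGFRB, 4 of 5 treated points lie above every vehicle point, while the groups of TIMP1 minus TIMP2 and DCN minus LUM overlap.

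A contrast between gene families also differed between the groups. For each animal, the median of 414 genes from 9 housekeeping families (ribosomal, proteasome, respiratory chain and others) minus the median of 510 genes from 5 groups that liver does not normally express (olfactory and taste receptors, keratin-associated proteins and others) gave a family contrast. It was 0.22, -0.085, 0.19, 0.038 and 0.0016 in treated livers, against -0.26, -0.16, -0.25, -0.022 and -0.28 in vehicle livers. The groups overlapped in this contrast only through treated animal 2 and vehicle animal 4. Group and contrast thus largely ran together in these 10 arrays, and their parts in a gene's difference cannot be told apart. With the contrast as a covariate, 398 of all genes passed in place of 3399, and 0 of the 10 markers did (4, TIMP1, LRAT, RGS5 and TGFB1, at an unadjusted limma p under 0.05). These counts depend on which genes enter the contrast. With wider symbol patterns (465 and 510 genes), tried after the data were seen, 560 genes passed and TIMP1 was among them (difference 0.45, adjusted p = 0.0485). When each of the 14 families and groups was left out of the contrast in turn, TIMP1 passed in 3 of the 14 fits (adjusted p 0.0329 to 0.0667) and LRAT and RGS5 in 0. TIMP1 differed by 0.45 to 0.46 in these fits.

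The differences of the 3 risen genes were at least as large in that fit, with wider errors. TIMP1 differed by 0.45 (SE 0.11, limma adjusted p = 0.052), RGS5 by 0.39 (SE 0.15, adjusted p = 0.125) and LRAT by 0.34 (SE 0.14, adjusted p = 0.135). TGFB1 was at -0.30 (SE 0.11, limma adjusted p = 0.105). DCN shrank to 0.15 (SE 0.18), LUM was 0.45 (SE 0.31), and DES and PDGFRB turned positive, at 0.14 and 0.16.

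**Figure D3:**
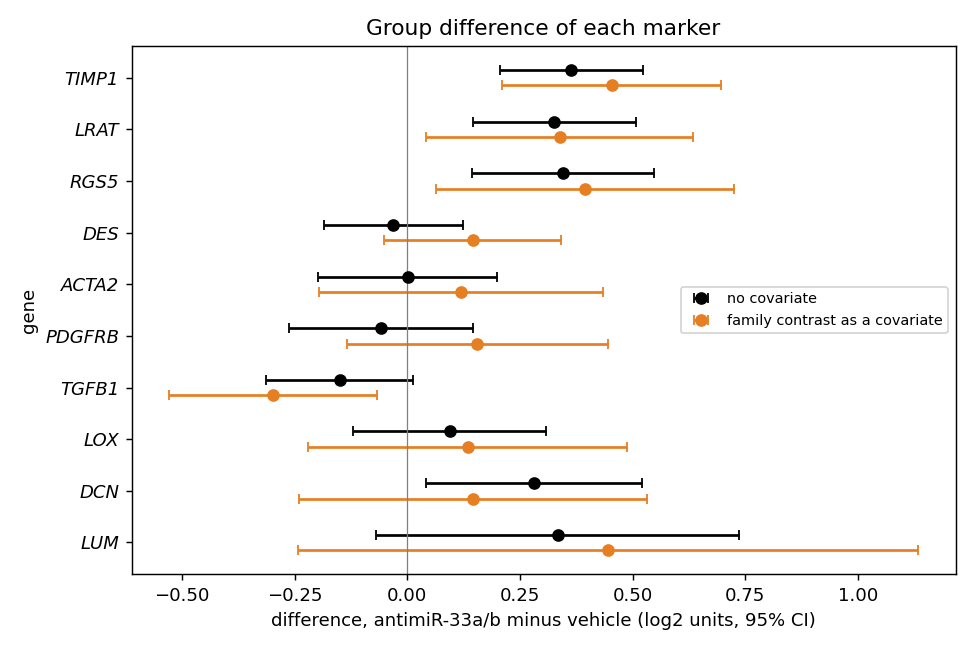
Difference between antimiR-33a/b and vehicle livers (log2 units) with its 95% confidence interval, for each marker, from the fit with no covariate (black) and from the fit that held the family contrast (orange). TIMP1, LRAT and RGS5 keep intervals above 0 in both fits, and the interval of TGFB1 lies below 0 only with the covariate. The interval of DCN lies above 0 only with no covariate. These intervals are not adjusted over genes, and 0 of the 10 markers passed in the fit that held the contrast.

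**Figure D4:**
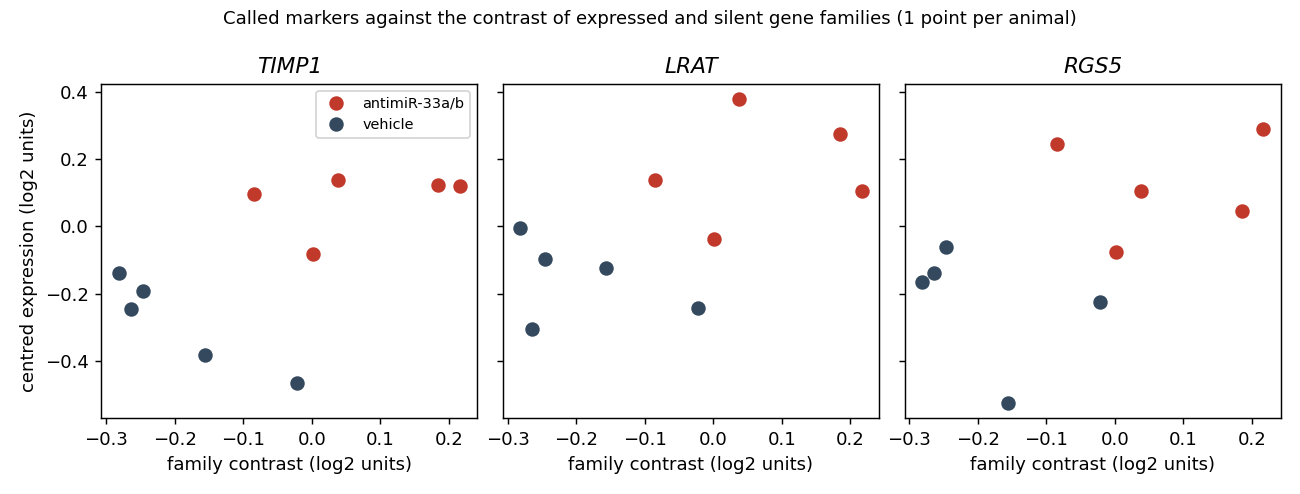
Centred expression of TIMP1, LRAT and RGS5 against the family contrast (both in log2 units), with 1 point per animal. Vehicle animal 4, at a contrast of -0.022 near the treated animals, had the lowest TIMP1 value of all 10 animals, -0.47. Its LRAT and RGS5 values, -0.24 and -0.23, were not the lowest. Treated animal 2, at the lowest contrast of its group, -0.085, was at 0.098 for TIMP1, 0.14 for LRAT and 0.24 for RGS5. The part of the contrast in these genes cannot be told from these animals.

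Markers of other liver cells were set beside these results. Their counts are to be read against the 20.5% of all genes that passed. Of 10 hepatocyte markers 5 rose and 0 fell, and their mean per animal ran from -0.088 to 0.13 in treated and from -0.41 to -0.052 in vehicle livers. Of 12 sinusoidal endothelial markers 3 rose and 0 fell, with means of -0.044 to 0.23 in treated and -0.28 to 0.060 in vehicle livers. Of 12 Kupffer cell and macrophage markers 0 passed in limma (1 at an unadjusted p under 0.05), and of 7 cholangiocyte markers 0 passed (1 at an unadjusted p under 0.05). Among 8 portal fibroblast markers ELN, elastin, fell by 0.19 (limma adjusted p = 0.0213) and 7 did not pass. Of 6 mesothelial markers 0 passed in limma (1 at an unadjusted p under 0.05). Of 5 red cell markers 0 passed either (2 at an unadjusted p under 0.05), although their median difference was 0.64, with means of -0.010 to 1.12 in treated and -0.64 to 0.20 in vehicle livers. HBB, the beta chain of haemoglobin, averaged 0.66 ± 0.70 in treated and -0.59 ± 1.01 in vehicle livers (SD, n = 5 each), and its difference of 1.25 (SE 0.43, limma adjusted p = 0.0551) was larger than that of any of the 10 markers. The red cell median was 1.06 with the family contrast in the fit. With that covariate 0 of the 10 hepatocyte and 0 of the 12 sinusoidal endothelial markers passed. In the same fit the median went from 0.26 to 0.17 for hepatocyte and from 0.21 to -0.00090 for sinusoidal endothelial markers. The Kupffer cell and macrophage median went from 0.075 to -0.34. Cholangiocyte, portal fibroblast, mesothelial, skeletal muscle and adipocyte medians were higher in that fit than without the covariate. Of 6 skeletal muscle markers CKM, muscle creatine kinase, fell by 0.31 (adjusted p = 0.00628), and of 5 adipocyte markers PLIN1, a lipid droplet protein, rose by 0.60 (adjusted p = 0.0234). The part of these other cells in the differences of TIMP1, LRAT and RGS5 was not tested.

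The wider stellate and fibrogenic programme was described with 12 further lists that together held 186 measured genes. Of these 21 rose and 10 fell, so 16.7% passed against 20.5% of all genes, and their median difference was 0.058 against 0.039. With the family contrast in the fit, 2 of the 30 list genes named below stayed past the threshold, CSPG4 and ADAMTS3. Both also passed in 12 of the 14 fits that left a family out of the contrast, and missed it in the other 2, in which 0 of all genes passed in limma (4261 and 4456 at an unadjusted p under 0.05).

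Of 14 other stellate identity genes only RELN, which encodes the secreted protein reelin, rose, by 0.42 (SE 0.11, limma adjusted p = 0.0223). RELN did not pass when any 1 of 5 animals was left out (adjusted p as high as 0.0555). CYGB, GFAP and HAND2, other genes used to mark these cells, differed by -0.075, -0.15 and 0.22 and did not pass. Over the 14 genes the difference was above 0 for 9, against 59.2% of all genes. Their median difference was 0.10, against 0.039 over all genes.

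Around LRAT, 1 of 20 retinoid handling genes rose and 3 fell. RBP4, the plasma carrier of retinol, rose by 0.48 (SE 0.081, limma adjusted p = 0.00324). RARA, a retinoic acid receptor, fell by 0.42 (adjusted p = 0.0141). RBP2, an intracellular retinol-binding protein best known from the intestine, fell by 0.32 (adjusted p = 0.0147). ALDH1A2, which makes retinoic acid, fell by 0.28 (adjusted p = 0.0362). That call was lost when any 1 of 8 animals was left out (adjusted p as high as 0.0903). RARA, RBP2 and RBP4 passed whichever animal was left out. Once the family contrast was in the fit, RBP4 differed by 0.45 and RARA by -0.30, while RBP2 was at -0.075 and ALDH1A2 at -0.026 (limma adjusted p between 0.0676 and 0.89).

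Around ACTA2 and RGS5, 1 of 13 contractile genes passed: MYOCD, the transcriptional coactivator myocardin, fell by 0.24 (limma adjusted p = 0.0174). Of 11 pericyte and mural genes CSPG4, the proteoglycan NG2, rose by 0.32 (adjusted p = 0.00763), and COX4I2, a cytochrome oxidase subunit isoform, fell by 0.37 (adjusted p = 0.0072). CSPG4 stayed past the threshold with the family contrast in the fit (difference 0.47, adjusted p = 0.0409). The median difference was 0.049 over the contractile and 0.051 over the pericyte genes, against 0.039 over all genes.

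Around PDGFRB, 1 of 5 ligand and receptor genes passed. PDGFB, whose product is the main ligand of this receptor, fell by 0.42 in treated livers (SE 0.092, limma adjusted p = 0.00909). Its 5 treated values were all lower than any vehicle value, a downward separation that 4.52% of all genes showed. The PDGFB mean was -0.15 ± 0.20 in treated and 0.27 ± 0.11 in vehicle livers (SD, n = 5 each). With the family contrast as a covariate PDGFB differed by -0.16 (adjusted p = 0.377).

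Around TGFB1, 3 of 24 genes for ligands, activators, receptors and SMAD proteins rose and 1 fell. LTBP1, which holds latent TGF-beta in the matrix, rose by 0.43 (limma adjusted p = 0.0233), and TGFBR3, the coreceptor betaglycan, rose by 0.32 (adjusted p = 0.034). SMAD4, the shared signal transducer, rose by 0.28 (adjusted p = 0.0435). ITGB6, a subunit of an integrin that activates latent TGF-beta, fell by 0.29 (adjusted p = 0.0388). LTBP1 missed the threshold without vehicle animal 2 (adjusted p = 0.0594), and SMAD4, ITGB6 and TGFBR3 did not pass when any 1 of 8, 7 and 6 animals was left out (adjusted p as high as 0.106, 0.0938 and 0.0835). With quantile normalization TGFBR3 and SMAD4 did not pass either, and neither did SMAD4 after the shift of arrays to one median. In the fit with the family contrast SMAD4 differed by 0.0067, TGFBR3 by 0.076 and ITGB6 by 0.0094, and LTBP1 by 0.40 (limma adjusted p between 0.204 and 0.975).

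Among 11 genes known to be induced by TGF-beta in fibrogenesis, 3 rose and 0 fell, with a median difference of 0.20. That is 27.3%, against 20.5% of all genes that passed, and 0 of the 11 passed with the family contrast in the fit. TGFBI, a matrix protein named for its induction by TGF-beta, rose by 0.45 (SE 0.072, limma adjusted p = 0.00232). The transcription factor gene SNAI2 rose by 0.36 (adjusted p = 0.00748), and THBS1, encoding the matrix protein thrombospondin-1, by 0.34 (adjusted p = 0.0285). THBS1 did not pass when any 1 of 3 animals was left out (adjusted p as high as 0.0702).

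Around TIMP1, 2 of 22 other TIMP and matrix protease genes rose and 1 fell. TIMP2 rose by 0.41 (SE 0.096, limma adjusted p = 0.0124), TIMP3 differed by 0.22 (adjusted p = 0.186) and TIMP4 by 0.086 (adjusted p = 0.381). The collagenase gene MMP1 rose by 0.22 (adjusted p = 0.0312), and MMP15, of a membrane-bound protease, fell by 0.23 (adjusted p = 0.0277). MMP1 and MMP15 each did not pass when any 1 of 4 animals was left out (adjusted p as high as 0.0816 and 0.0709).

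Around LOX, 4 of 21 collagen processing and crosslinking genes rose and 1 fell. The 4 called genes with the smallest p are named here, which leaves 1 risen gene unnamed. Differences in this list ran from -0.27 to 0.46. PLOD2, a lysyl hydroxylase that prepares collagen for crosslinking, rose by 0.27 (limma adjusted p = 0.0118). ADAMTS3, a procollagen protease, rose by 0.29 (adjusted p = 0.0143), and its relative ADAMTS14 fell by 0.25 (adjusted p = 0.022). SERPINH1, the collagen chaperone HSP47, rose by 0.33 (adjusted p = 0.0422). It did not pass when any 1 of 8 animals was left out (adjusted p as high as 0.0984), nor after quantile normalization or the shift of arrays. ADAMTS14 was lost without any 1 of 3 animals (as high as 0.0592).

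Beside DCN and LUM, 0 of 12 other small leucine-rich proteoglycans rose, and OMD, osteomodulin, fell by 0.31 (limma adjusted p = 0.022; up to 0.053 without any 1 of 3 animals; -0.063 with the family contrast in the fit). Of 13 scar and basement membrane collagens 0 passed with the family contrast in the fit. With no covariate 4 rose and 0 fell, 30.8% against 20.5% of all genes that passed, with a median difference of 0.20. They were COL4A1 (0.53, adjusted p = 0.0179), of the basement membrane, COL6A3 (0.34, adjusted p = 0.0143), of microfibrils, COL5A2 (0.26, adjusted p = 0.0356), of collagen fibrils, and COL18A1 (0.35, adjusted p = 0.0392), the precursor of endostatin. COL5A2 and COL18A1 each did not pass when any 1 of 7 animals was left out (adjusted p as high as 0.089 and 0.0923), nor did COL18A1 after quantile normalization or the shift of arrays. The main fibrillar collagens did not pass, with differences of -0.13 for COL1A1, 0.25 for COL1A2 and 0.20 for COL3A1. Of 20 other matrix glycoproteins 2 rose: SPARC, which binds collagen, by 0.53 (adjusted p = 0.0116) and LAMC1, a laminin chain, by 0.25 (adjusted p = 0.0188; 0.0505 without vehicle animal 2).

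**Figure D5:**
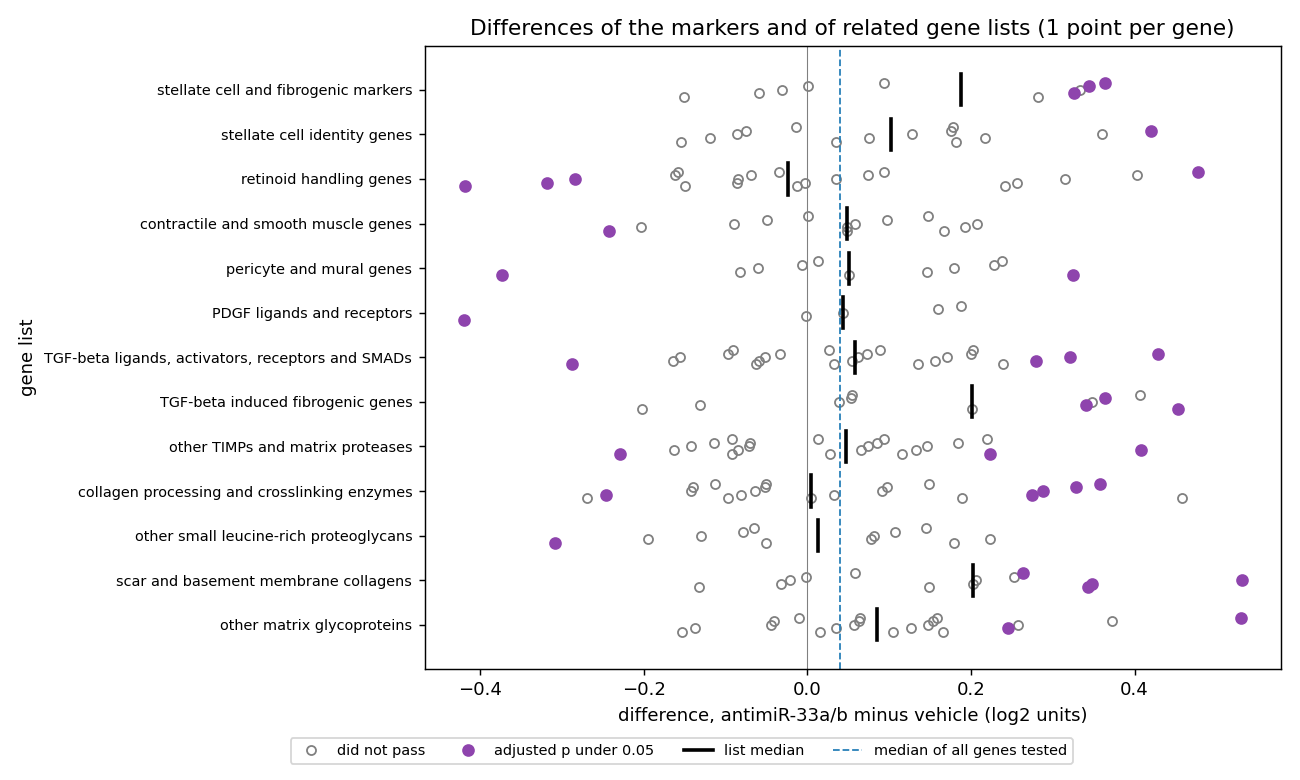
Difference between antimiR-33a/b and vehicle livers (log2 units) for each measured gene of the 10 markers and of the 12 related lists, with called genes filled, the median of each list as a bar and the median of all genes as a dashed line. Among the lists shown, the highest medians are 0.20 for TGF-beta induced genes and for collagens and 0.19 for the 10 markers, against 0.039 for all genes. Higher medians were found for lists not shown, 0.26 for hepatocyte, 0.21 for sinusoidal endothelial and 0.64 for red cell markers.

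With the family contrast in the fit, the medians were 0.19 for TGF-beta induced genes, 0.19 for collagens and 0.15 for the 10 markers, against 0.090 for all genes.

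For each risen marker, the 3 genes with the most similar profile were found by the root mean square difference of the centred values over the 10 animals. For TIMP1 they were SMAD1 (0.051), PPP3R1 (0.057) and AKAP1 (0.063), against a median of 0.22 over all genes. For LRAT they were FOXK1 (0.066), ATMIN (0.068) and FBXO5 (0.069), and for RGS5 they were GNAI3 (0.068), AKAP1 (0.093) and PABPC5 (0.094). These distances describe the 10 arrays and include the group difference itself. They were picked as the smallest over all genes, so they lie below the median by selection.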

How the data were processed

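Total RNA (1 µg) of liver biopsies was converted to double-stranded cDNA and labelled with Cy3, per the labels' protocols, and read on 1-colour arrays. The authors deposited 1 normalized value per feature and array, centred per feature and taken here as log2; no source used here gives the scanner, the normalization or the base of the logarithm. Under a natural log scale every fold would lie further from 1. A probe table gave 1 human gene symbol for 18188 of 45033 features and none for 26845. A gene is the mean of its features.

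Groups were compared with limma 3.58.1 in R 4.3.3 (lmFit, eBayes, 10 arrays, no covariate), checked on simulated data. The simulated noise was independent between genes and held no family contrast. That check therefore cannot cover the part of the contrast in the calls. Single values and gene pairs used exact two-sided permutation tests. No depth exists for arrays, so the number of animals limits precision. The labels give no batch.

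The members, lists, pairs, alternatives and the family contrast (symbol patterns) were chosen with earlier results of these data known. Named genes are the 10 members, up to 4 called genes with the smallest p per list (otherwise the gene with the smallest p) and the 3 nearest profiles per called member. CYGB, GFAP, HAND2, HBB, TIMP3, TIMP4, ELN, CKM, PLIN1, COL1A1, COL1A2 and COL3A1, and the genes named in the closing section only, were named after their values were seen. Alternatives were quantile normalization, a shift of arrays to one median, trend and robust eBayes, array weights, single features, exact tests per gene, leaving out each animal and the family contrast as a covariate; other gene choices for that contrast were added after seeing the data.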

Additional observations from a re-analysis of the deposited data

Results flagged for a closer look

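Of 80 groups of 5 animals (40 named genes), 7 held a value whose gap to its nearest neighbour was over 0.71 of the group's range; chance marks about 1 in 20 groups. In treated livers TIMP1 was at -0.082 in animal 5, against 0.098 for the next animal, and TGFB1 was at 0.095 in animal 3, against -0.15 for the next. RBP4 stood at -0.00069 in treated animal 1 (next 0.22), ADAMTS14 at 0.11 in treated animal 3 (next -0.099), SERPINH1 at -0.20 in treated animal 2 (next 0.22) and COL6A3 at 0.40 in treated animal 4 (next 0.11). In vehicle livers RARA was at -0.12 in animal 2, against 0.34 for the next. The 7 values came from 6 different animals.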

How the results depend on the processing

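The 3 called markers stayed at 3 under quantile normalization, the shift of arrays to one median, trend and robust settings and array weights. They numbered between 2 and 4 when single animals were left out, 0 with the family contrast as a covariate (1, TIMP1, with wider symbol patterns, and 0 or 1 when each of 14 families was left out of the contrast; both were chosen after seeing the data) and 0 in exact permutation tests adjusted over all genes. All called genes numbered 3399, against 398 with the family contrast, 560 with its wider patterns and between 0 and 1324 with each family left out of it in turn (1324 without ribosomal proteins, and 0 in limma without mitochondrial ribosomal proteins or without olfactory receptors, where 4261 and 4456 had an unadjusted p under 0.05), 0 in the exact tests (of which the smallest possible p is 0.0079) and 9560 of 45033 features tested singly; without single animals they ranged from 1925 (vehicle animal 1) to 4117 (vehicle animal 4), with 2030 without treated animal 3 and 2135 without vehicle animal 2. Signs turned for markers that had not passed, and for the list genes ITGB6 and SERPINH1, which had passed with no covariate. DES was at 0.14 with the family contrast and between -0.090 and 0.0037 without single animals, and PDGFRB at 0.16 (0.15 with wider patterns) and between -0.11 and 0.032. ACTA2 was at -0.0049 after the shift of arrays, -0.011 after quantile normalization, -0.045 with array weights, and between -0.073 and 0.039 without single animals. With the family contrast ITGB6 was at 0.0094 and SERPINH1 at -0.014 (0.0040 and -0.011 with wider patterns). Without single animals LUM ranged from 0.19 to 0.47 and LOX from 0.047 to 0.16. Over fits without single animals the pair gaps ranged from 0.25 to 0.40 for LRAT minus ACTA2, 0.23 to 0.32 for TIMP1 minus LOX (past the threshold without vehicle animal 1, adjusted p = 0.0397), 0.32 to 0.47 for RGS5 minus PDGFRB (past it without treated animal 5, adjusted p = 0.0397), -0.078 to 0.026 for TIMP1 minus TIMP2 and -0.14 to 0.034 for DCN minus LUM. The cause of these shifts was not tested. No paired analysis was possible because the labels give no numbers shared between groups.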

Other observations

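Of the genes in the lists, 4 passed with the family contrast as a covariate. Beside CSPG4, described above, ADAMTS3 differed by 0.47 (limma adjusted p = 0.0409). TGFB2, a second TGF-beta ligand, differed by 0.44 in that fit (adjusted p = 0.0422) and by 0.20 without the covariate (adjusted p = 0.0909). PLOD1, a lysyl hydroxylase related to PLOD2, differed by -0.58 (adjusted p = 0.0409), against -0.064 without the covariate (adjusted p = 0.766). CSPG4, ADAMTS3, TGFB2 and PLOD1 each passed in 12 of 14 fits that left a family out of the contrast. These genes were singled out after their values were seen. Of the retinoid genes outside the naming rule, RDH10, which oxidizes retinol, differed by 0.40 (limma adjusted p = 0.0509), and ALDH1A1 by 0.32 (adjusted p = 0.0727). With the family contrast as a covariate RDH10 was at 0.36 (adjusted p = 0.319), and ALDH1A1 turned to -0.045 (adjusted p = 0.861).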
